A study of Gasterosteus aculeatus with 12 samples.

Results

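Strong allelic imbalance in the same direction was described at 676 of 540774 sites that were listed in at least 1 of 12 F1 hybrid stickleback embryos (*Gasterosteus aculeatus*). A site is a single base at which the authors counted RNA-seq reads carrying the reference base of the *gasAcu1-4* genome and reads carrying an alternate base. Of these sites, 321670 were listed in all 12 embryos and 116469 had more than 12 reads in every embryo. At 21164 of them the less frequent base made up more than 5% of the reads in every embryo, and 20286 of these lay outside chrXIX, the sex chromosome, and the unplaced sequence chrUn. A further 2443 sites were set aside because more than 5% of their pooled raw depth had low mapping quality, which left 17843 clean heterozygous sites. The rule then asked that the same base be the more frequent one in all 12 embryos, and that it make up at least 66.7% of the reads pooled over the embryos. The 676 sites that passed were therefore chosen on their read shares, and their imbalance is given here as a description with no test.

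The embryos were made by in vitro fertilization between LITC, an anadromous Little Campbell stock with few dorsal spines, and the High-spine stock, which descends from a cross of Boulton Lake and Bodega Bay fish. They were collected whole at 72 hours post fertilization, at stage 19/20, and each gave 1 RNA-seq library. All 12 embryos form a single group with no treatment or control, so the alleles were compared within each embryo. The paper describes different crosses for the embryos and for its spine and fin samples. The 12 embryos are therefore taken to be siblings of a single cross. They repeat the reading of that cross and do not stand for other parents. The parental fish were not inbred, the sources used here do not give the parents' genotypes, and the files do not say which base came from LITC and which from High-spine.

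In an F1 hybrid both parental copies of a gene share a nucleus, so unequal transcript levels of the copies point to differences in cis, in or near the gene itself, and not to diffusible regulators. A site that is heterozygous in every offspring is what is seen where the parents are homozygous for different bases. Sites close together in a transcript are read by the same fragments, so on a single haplotype their shares should match. RNA reads can also carry bases that the genome does not: ADAR enzymes deaminate adenosine to inosine, which is sequenced as G, and seen from the other strand this is T-to-C. The files hold no DNA genotypes, so "heterozygous" here is read from RNA alone.

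Depth differed modestly across the embryos. The libraries listed 440710 to 489185 sites, with 16302333 to 27003127 reads counted in all. At the 676 members the median number of reads per site was 42 to 76.5 between embryos. Pooled over the 12 embryos, a member had a median of 766.5 reads and a remaining clean heterozygous site 695, so the members were not the thinly read sites. The reads carry no molecular identifiers, and the intervals below are exact Clopper-Pearson 95% intervals that cover counting error only.

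Same-direction sites made up a small share of the clean heterozygous sites. In all, 1786 of the 17843 sites (10.0%) had the same base higher in all 12 embryos, with the reference base higher at 1272 (7.13%) and the alternate base at 514 (2.88%). The pooled share reached 66.7% at 837 sites (4.69%), of which 161 did not have the same direction in all 12. Both conditions held at 676 sites (3.79%), with the reference base higher at 508 (2.85%) and the alternate base at 168 (0.942%). The pooled share of the higher base had a median of 75% over the members and ran from 66.7% to 93.0%. As a ratio of higher to lower reads this is a median of 2.99-fold and a range of 2.0- to 13.3-fold. Over the 17167 remaining clean heterozygous sites the more frequent base had a median pooled share of 53.0%.

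**Figure D1:**
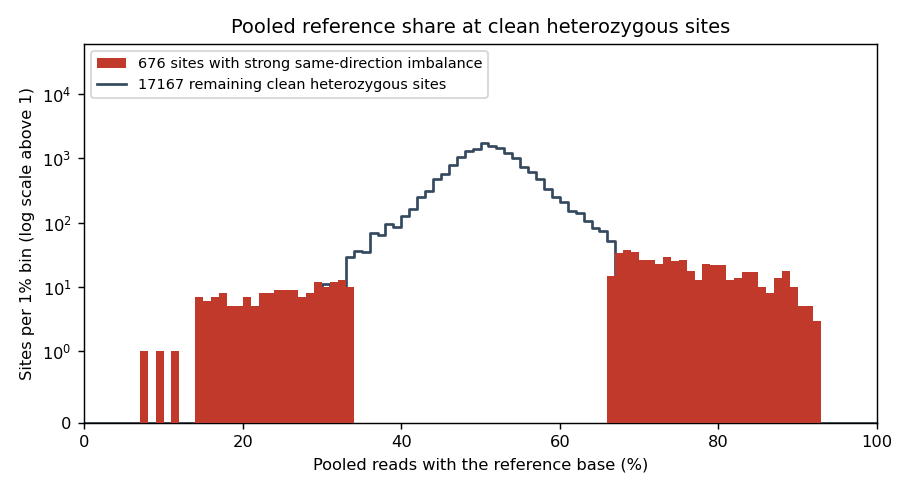
Number of sites per 1% bin (y axis, log scale above 1) by pooled percent of reads with the reference base (x axis), for the 676 members (bars) and the 17167 remaining clean heterozygous sites (line). The members lie outside the central range by construction, and 508 of them lie on the side of the reference base against 168 on the side of the alternate base.

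The limit of 66.7% cut through a continuous range of shares. Just inside it were X 152518 (431 reads of T, the reference base, against 215 of A, 66.72%), XII 1418483 (66.73%) and XIII 9860896 (66.73%). Just outside it, among the sites with the same direction in all 12 embryos, were X 14969107 (66.67%), XIII 19201295 (66.67%) and XVI 18313818 (66.64%). At X 152518 the share of T was lowest at 54.9%, had a median of 63.3% and was highest at 90.3% between embryos, so a member near the limit can owe its pooled share to a few embryos.

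The imbalance was of similar size in every embryo. Pooled over the members, the higher base made up 78.6% to 81.0% of the reads in each embryo, with a median of 79.6%. The median member had a share of 75% to 76.7% in each embryo, and the median share of the more frequent base at the remaining sites was 55.2% to 56.3%. The SD between embryos had a median of 6.34 percentage points over the members, where counting alone gave a median of 5.44 points. At the remaining sites the medians were 7.02 and 6.74 points. The rule keeps the same base higher in every embryo of a member, which limits the spread at members, so the SDs of these sets are not alike. Pearson's chi-square around the pooled share, divided by its degrees of freedom, is near 1 when embryos differ by counting error only. It was above 3 at 14.8% of the members and at 4.72% of the remaining sites, so a minority of the members varied between embryos well beyond counting.

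A reading that the choice of members had not used was obtained by applying the rule to 11 embryos and reading the share in the embryo left out, each in turn. The rule picked 673 to 757 sites in these rounds. Readings were kept where the embryo left out had more than 12 reads and both bases above 5%. The same base was higher in 8058 of 8184 such readings (98.5%), with 97.6% to 99.1% in each embryo. No matching value is given for the remaining sites, so this percentage has no background to be set against. The median share was 75% to 76.4% in the embryo left out and 74.7% to 75.3% in the 11 embryos pooled. In a further 3 to 23 sites per round the embryo left out showed nearly a single base, and this was the chosen base at each of them. These rounds share embryos, and the embryos are taken to be siblings of a single cross, so the 8184 readings are not independent.

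Direction was not used by the rule. The reference base was the higher one at 508 of 676 members (75.1%, interval 71.7% to 78.4%) and at 10125 of 17167 remaining sites (59.0%, 58.2% to 59.7%). Among the 1110 sites with the same direction in all 12 embryos but a share under the limit it was 68.8%. The intervals treat sites as independent, which sites that share a transcript are not. With 1 member kept from each run of members at most 10 kb apart, the reference base was higher at 75.4%. The lean to the reference base was thus larger at the members than at the rest, where the median pooled reference share was 51.0%. Members with the reference base higher had a median share of 75.1%, and members with the alternate base higher had 74.3%, so the directions differed in number more than in size. Aligners favour reads that match the reference, and the part of this in the direction of the members was not tested.

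The lean to the reference base varied with how many heterozygous sites stood close together. Of 263 clean heterozygous sites with 6 to 15 others within 150 bp, 92 (35.0%) were members, and the reference base was higher at 85.9% of these members and at 72.5% of the non-members in the same class. With 3 to 5 others within 150 bp, 137 of 1350 sites (10.1%) were members, 78.1% of them with the reference base higher. With 1 or 2 others 215 of 5952 (3.61%) were members, and 69.3% of those had the reference base higher. With no other site within 150 bp 232 of 10278 (2.26%) were members, and 74.6% of those had the reference base higher. Dense stretches were therefore rich in members and in reference-higher members, but isolated members also leaned to the reference base. Sites in the same stretch can share reads and are not independent, so the densest class rests on fewer stretches than sites.

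Reads of low mapping quality were also more frequent at the members, within the limit of the rule. The median share of raw depth with low mapping quality was 1.02% at the members and 0.263% at the remaining sites. At most 1% was seen at 336 members (49.7%) and at 13544 remaining sites (78.9%). Members made up 2.42% of the clean sites with at most 1% and 8.58% of those with more. The reference base was higher at 73.8% of the members with at most 1% and at 76.5% of those with more, so the direction was nearly the same on both sides. Bases other than the reference and alternate ones were read at 27.1% of the members and at 19.2% of the remaining sites, with a highest value of 59.95% of the raw depth at a member. The part of mapping and of other bases in the choice of these sites was not tested.

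The kinds of base change differed modestly from those at the remaining sites. Transitions made up 53.8% (50% to 57.7%) of the members and 60.5% (59.7% to 61.2%) of the remaining sites. The gap lay in C-to-T and G-to-A changes, with 26.3% of the members and 35.4% of the remaining sites. A-to-G and T-to-C changes together made up 27.5% of the members (24.2% to 31.0%) and 25.1% of the remaining sites (24.4% to 25.7%). Members that share a transcript are not independent, which these intervals do not take into account.

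Members were found on every chromosome that held clean heterozygous sites, with large differences in number. Chromosome XI had the most members (76 of 1988 clean heterozygous sites), then VIII (60 of 1072), IV (59 of 1449), II (49 of 906) and III (39 of 616). As a share of the clean heterozygous sites, III had 6.33%, VIII 5.60% and II 5.41%, whereas XIII had 2.34%, XV 2.39% and XVIII 2.43%. On each numbered chromosome the reference base was higher at most of the members, with shares of 62.7% on IV to 94.1% on V. Of 424 windows of 1 Mb that held a clean heterozygous site, 213 held a member. The window from 9000001 to 10000000 on III held 22 members among 65 sites, the most of any window, and a single cluster supplied 21 of them.

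Members often lay close to each other. Joining members at most 10 kb apart gave 118 clusters with 2 or more members and 231 single members. The clusters held 445 of the 676 members (65.8%), and 26 clusters with 5 or more members held 221. Heterozygous sites in transcripts lie close together in any case, and 91.2% of all clean heterozygous sites lay in such runs. Of the 2247 clean heterozygous sites with another member within 10 kb, 445 (19.8%) were members, and of the 15596 without one 231 (1.48%) were. Within 150 bp the shares were 346 of 674 (51.3%) and 330 of 17169 (1.92%), so that members stood beside members.

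The clusters were short and mostly uninterrupted. Their median length was 132.5 bp, 63 were at most 150 bp long and 32 were longer than 1 kb. In 86 of the 118 clusters every clean heterozygous site between the first and the last member was itself a member, and 143 of the 588 sites in all the spans were not. The median difference between the highest and the lowest pooled share in a cluster was 4.63 points. Clusters of 2 weigh heavily in both the count of 86 and this median. The reference base was higher at every member of 66 clusters, the alternate base at every member of 10, and 42 clusters held both. A haplotype may carry reference bases at some sites and alternate bases at others, so a cluster with both directions can still be a single haplotype.

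Whether neighbouring members fitted a single haplotype was examined through the embryos. Where the reads of neighbours come from the same transcripts, an embryo with a high share at the first site has a high share at the second. For each of 327 pairs of neighbouring members within 10 kb, Pearson's r of the higher-base share was taken over the 12 embryos. These pairs share libraries and, at short distances, fragments, so r is a description of a pair and carries no p-value. It was positive in 264 pairs (80.7%), with a median of 0.64.

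The accord between neighbours fell with distance. Within 150 bp r was positive in 201 of 234 pairs (85.9%), with a median of 0.84, and the pooled shares differed by a median of 2.10 points. Over 150 bp and up to 1 kb it was positive in 43 of 59 pairs (72.9%), with a median of 0.21 and a median difference of 4.48 points. From 1 to 10 kb it was positive in 20 of 34 pairs (58.8%), with a median of 0.15 and a median difference of 4.18 points. Neighbouring pairs among the remaining sites, set in the closer phase, had median values of r of 0.78, 0.07 and 0.02 at these distances. Their pooled shares differed by medians of 1.30, 2.11 and 2.16 points, less than at the members, though the closer phase keeps these differences small. Short-range accord was therefore a property of heterozygous sites in general, and beyond 150 bp both the members and the remaining sites had low values.

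**Figure D2:**
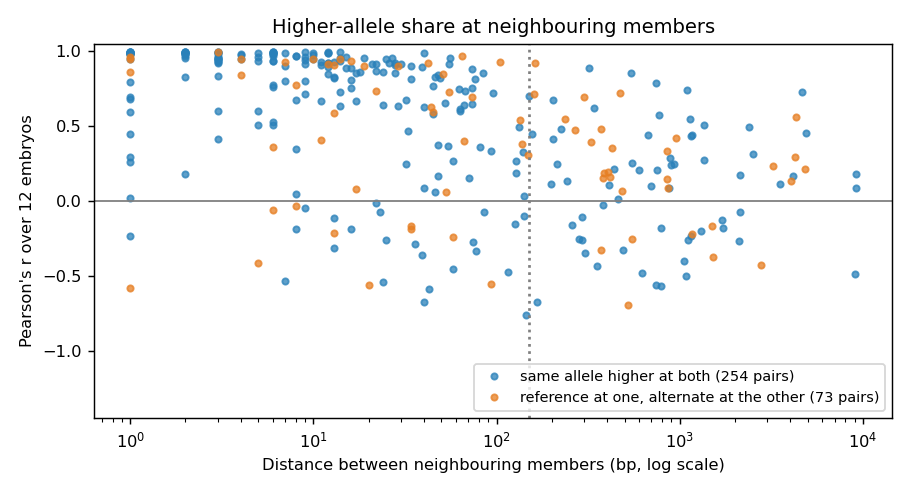
Pearson's r over 12 embryos of the higher-base share at neighbouring members (y axis) by distance (x axis, bp, log scale), for 254 pairs with the same base type higher at both sites and 73 pairs with the reference base higher at one site and the alternate base at the other. The dotted line marks 150 bp, within which 201 of 234 pairs had a positive r.

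Opposite labels did not break this accord at short range. Of the 43 pairs within 150 bp with the reference base higher at one site and the alternate base at the other, 33 had a positive r and the median was 0.70. The 191 pairs with the same label had a median of 0.86. The exact intervals of the pooled shares overlapped in 169 of the 234 pairs within 150 bp (72.2%). Most close neighbours therefore matched in embryo pattern, and most in pooled share, as sites of a single haplotype would. Clusters of a single kind of base change were the clearest exception, but not the only one. The intervals overlapped in 11 of 41 close pairs there and in 158 of 193 among all other members. Some close neighbours in clusters of mixed changes thus differed in pooled share too.

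In 6 clusters with 4 or more members, at least 80% of the members were A-to-G, or at least 80% were T-to-C. This grouping was chosen after the values were seen. The 6 clusters held 52 members, 40 of them with the reference base higher, and the range of pooled shares within a cluster had a median of 20.6 points (16.3 to 23.4). In the 27 other clusters with 4 or more members it had a median of 9.50 points (1.80 to 22.5). Non-members lay within the span of 4 of the 6 clusters and of 12 of the 27 others. Within 150 bp, r was positive in 22 of 41 neighbouring pairs of the 6 clusters, with a median of 0.05 and a median difference of 7.67 points. Among all other members it was positive in 179 of 193 such pairs, with a median of 0.91 and a median difference of 1.25 points. Neighbours in the A-to-G and T-to-C clusters thus did not share an embryo pattern as close neighbours elsewhere did. Whether the G and C bases at these sites are present in the genome was not tested.

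The cluster on XI at 17087788 to 17089103 was the largest of this kind. All 13 members were A-to-G, as were 22 of the 23 clean heterozygous sites in its span. The reference A was higher at 7 members and G at 6, and the 6 with G higher lay among the last members of the span. At XI 17087790 A had 633 reads and G 82 (88.5%), while at XI 17089097 G had 340 reads and A 64 (84.2%). The 10 non-members in the span had shares of 54.3% to 66.4%, so balanced and unbalanced sites were interleaved. Averaged over its members, the higher base had 79.4% ± 1.87 (SD, n = 12 embryos), with embryos from 75.6% to 82.2%.

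The cluster on IV at 814981 to 815361 packed 12 A-to-G members into 381 bp. Of the 18 clean heterozygous sites in the span, 16 were A-to-G. The reference A was higher at 11 members, from 69.7% at IV 815195 to 92.1% at IV 815344, and G was higher at IV 815040 with 2195 reads against 380 (85.2%). Adjacent sites differed far beyond counting error. IV 815187 had 87.6% (86.3% to 88.8%) and IV 815195, only 8 bp away, had 69.7% (67.9% to 71.4%). IV 815344 and IV 815360, 16 bp apart, differed by 18.2 points, with r = -0.18. The cluster mean was 80.7% ± 0.777 (SD, n = 12) with embryos from 79.5% to 82.3%. It averages 12 chosen sites, which by itself narrows the spread, so the small SD is no sign of accord between embryos.

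On II at 16079556 to 16080664, 11 of the 12 members were T-to-C, and so were 17 of the 18 sites in the span. The reference base was higher at 9 members and the alternate base at 3, with shares of 68.9% to 91.7%. The only member with another change, II 16080625 (C-to-T), had 69.7% of its reads with C, and II 16080631, 6 bp away, had 89.0% with T. The pair II 16079556 and II 16079700 had r = -0.76, the lowest of all neighbouring pairs. The cluster mean was 81.9% ± 1.81 (SD, n = 12 embryos).

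The other 3 clusters of this kind had 5 members each. On VIII at 19277317 to 19277575 all 5 were T-to-C, and VIII 19277317 (775 reads of T against 75 of C, 91.2%) and VIII 19277380 (67.9%), 63 bp apart, differed by 23.2 points, the largest difference of any neighbouring pair within 150 bp. On XXI at 14285426 to 14285460 all 5 were A-to-G. There XXI 14285439 had 84.2% of its reads with A, whereas the adjacent base, XXI 14285440, had 69.7% with G, and r between them was -0.58. On VI at 17892557 to 17892903 all 7 clean heterozygous sites in the span were T-to-C, and 5 of them were members, with shares of 71.7% to 88.0% and the reference base higher at each.

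**Figure D3:**
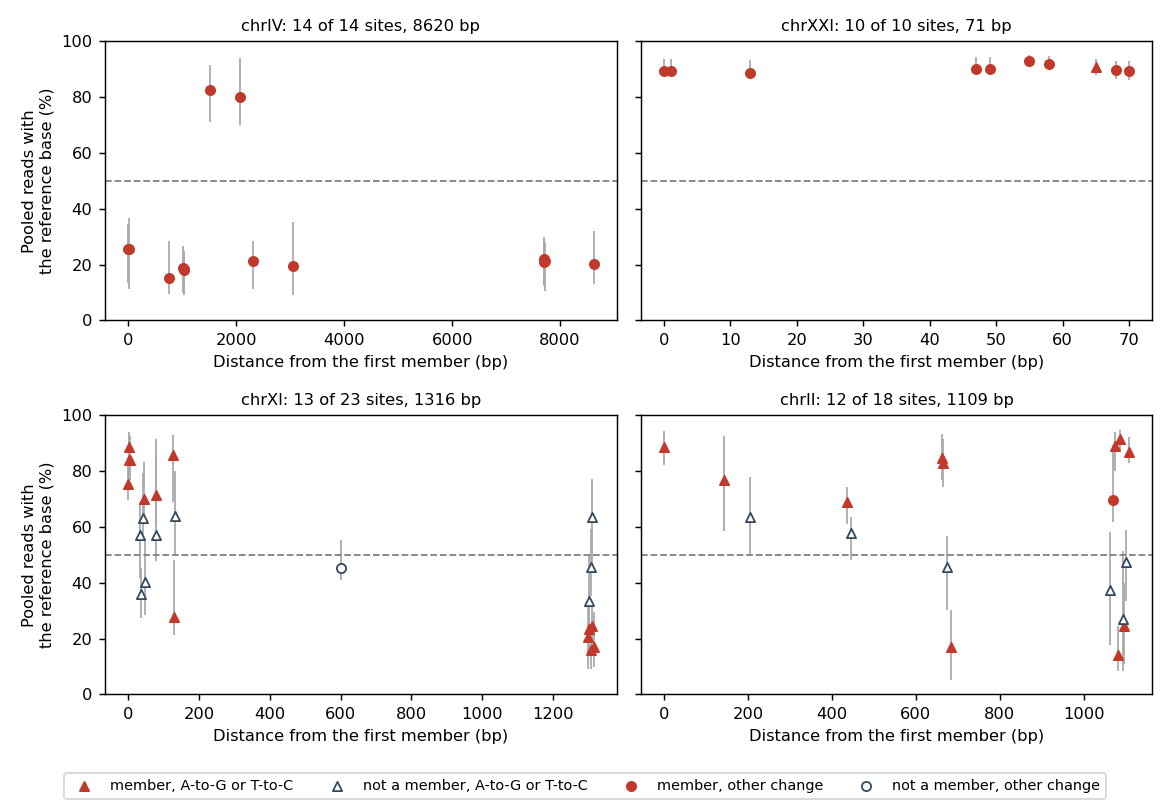
Pooled percent of reads with the reference base (y axis) at each clean heterozygous site along 4 clusters, by distance from the first member (x axis, bp), with grey bars from the lowest to the highest embryo. The 10 sites of the XXI cluster all lie near 90% and the 14 of the IV cluster mirror each other around 50%, whereas in the XI and II clusters members and non-members with A-to-G or T-to-C changes are scattered.

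The remaining large clusters held mixed base changes. The cluster with the most members lay on III at 9410855 to 9415926, where 21 of 23 clean heterozygous sites were members, 19 with the reference base higher and 2 with the alternate base. Pooled shares were 68.6% at III 9411343 to 91.1% at III 9412975. Averaged over the 21 sites, the higher base made up 84.4% of the reads in embryo 5, 82.8% in embryo 10, 80.5% in embryo 12 and 79.8% in embryo 11. The other 8 embryos had 72.6% to 76.8%, so these 4 were the highest, with no wide gap below them. The mean over all was 77.5% ± 3.57 (SD, n = 12).

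Shares in this cluster were stepped over short distances. III 9410932 had 69.5% with G (66.7% to 72.1%), and III 9410944, 12 bp on, had 86.8% with G (84.8% to 88.5%), yet r between them was 0.85. At this pair the embryos therefore largely kept their order across a difference of 17.3 points. Not all close neighbours in the cluster did so. Between III 9411188 and III 9411227, 39 bp apart, r was -0.36, and between III 9411227 and III 9411343, 116 bp apart, it was -0.47. At the other neighbouring members of the cluster within 150 bp r was positive. Farther on, the shares at III 9412041 and 9412043 were 85.4% and 85.3%, and those at III 9412083, 9412087, 9412088 and 9412090 were 76.6%, 76.1%, 75.7% and 74.8%. Of the 21 members 10 had at most 1% of low mapping quality depth, near the 49.7% of all members, and the highest value was 4.76%.

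The cluster on IV at 25383095 to 25391714 was imbalanced without interruption over a long span. All 14 clean heterozygous sites in 8620 bp were members, 12 with the alternate base higher and 2, IV 25384610 and IV 25385160, with the reference base higher. All 14 shares lay between 74.5% and 84.7%. This range of 10.3 points was near the median of 9.50 points over the mixed-change clusters with 4 or more members. For example, IV 25384132 had 766 reads of T against 168 of A (82.0%), and IV 25384610 had 614 reads of G against 128 of A (82.7%). The embryo means were 75.8% to 83.0%, or 80.1% ± 2.68 (SD, n = 12). Low mapping quality depth was at most 0.807% at every site, and the lean here was to the alternate base.

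The shortest of the clusters with the most members lay on XXI at 14248963 to 14249033. It held 10 members in 71 bp, all with the reference base higher, and no other clean heterozygous site. With 15711 to 23871 pooled reads each, the shares were 88.7% to 93.0%. At XXI 14249018 C had 17128 reads and G 1292, and the SD between embryos was 1.12 points, the smallest of all members. The rule needs the less frequent base above 5% in every embryo, which holds down the spread at such shares. The cluster mean was 90.5% ± 1.79 (SD, n = 12), with embryo 10 highest at 93.9% and embryo 6 lowest at 88.2%. Low mapping quality depth reached 4.26%, close to the limit of 5%.

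On XIV at 15388917 to 15390705 all 10 clean heterozygous sites were members with the reference base higher, in a pair of groups. The 4 sites from 15388917 to 15388947 had shares of 74.0% to 75.2%, and the 6 sites from 15390651 to 15390705 had 85.2% to 88.5%. Within each group the intervals overlapped, and between the groups they did not. The embryo means were 74.3% to 86.1%, or 82.2% ± 3.52 (SD, n = 12). On IV at 17713235 to 17719959, in contrast, only 12 of 28 clean heterozygous sites were members. The 16 others had shares of 50.1% to 66.8%, and 11 of the 12 members had the reference base higher, with shares of 72.3% to 87.6%. Its embryo means were 72.0% to 83.1%, or 78.3% ± 4.0 (SD, n = 12), with the largest SD of the 8 clusters with the most members.

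**Figure D4:**
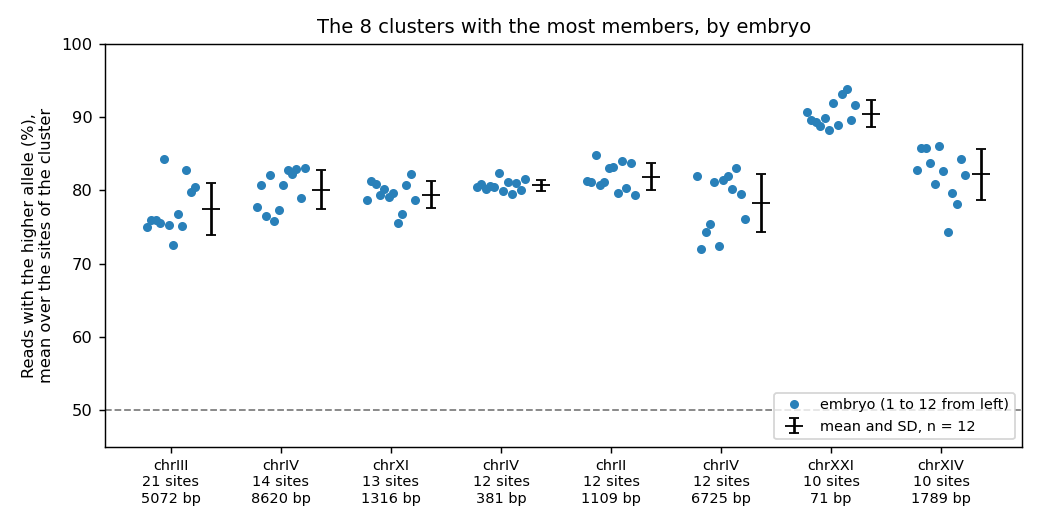
Percent of reads with the higher base, averaged over the members of a cluster (y axis), in each of the 12 embryos (points, embryo 1 to 12 from left to right) for the 8 clusters with the most members, with the mean and SD. By construction every embryo lies above the dashed line at 50% in every cluster. The embryo means run from 72.0% in the 12-member cluster of 6725 bp on IV to 93.9% in the XXI cluster.

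The longest clusters had fewer members. The longest, on VIII at 18669834 to 18682535 (12702 bp), held 9 members among 20 clean heterozygous sites, 8 of them with the reference base higher. On XII at 833525 to 842693 the only 2 clean heterozygous sites, 9168 bp apart, were both members, with 75.2% and 76.2%. On II at 18318692 to 18327706, 9 of 11 sites were members, 7 of them with the alternate base higher, with shares of 66.7% to 82.7%. Both non-members there had shares under the limit, 63.9% and 64.7%.

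Imbalance at a member did not always extend to its close neighbours. Within 150 bp, 444 members had another clean heterozygous site, and 346 of these had another member. The 328 non-members within 150 bp of a member had a median share of 58.8%, and 43.9% of them reached 60%. Neighbours that passed the rule are left out of these values, which are therefore lower than over all neighbours. The 16839 remaining sites farther away had a median of 53.0%, and 7.37% reached 60%. Within 10 kb the 1802 non-members near a member had a median of 54.1%, so the excess at non-members was small at that range. Against this, 98 members had only non-members within 150 bp, and at 31 of them every such neighbour was below 55%. The reference base was higher at 25 of these 31.

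The members with the most reads had narrow intervals for counting error, which do not cover the spread between embryos. Outside the 8 large clusters, XVIII 9140356 had 91268 reads of C, the alternate base, and 16358 of T (84.8%, 84.6% to 85.0%), with embryos lowest at 79.1%, a median of 85.2% and highest at 89.0%. The SD between embryos there was 3.37 points, where counting alone gave 0.385 points. The site lay in a cluster of 7 members at 9139393 to 9140879. I 2454261 had 15710 reads of C and 3693 of T (81.0%), with embryos from 77.8% to 84.0%. At both sites every embryo was well above 66.7%. The highest shares outside the large clusters were at XII 5316341 (1426 reads of A against 110 of T, 92.8%), IV 11116942 (1347 of A, the alternate base, against 116 of C, 92.1%) and XI 3303448 (2380 of G against 214 of T, 91.8%). At these 3 sites the SD between embryos was 1.15 to 1.72 points, where counting alone gave 1.91 to 2.47 points. The rule needs the less frequent base above 5% in every embryo, which holds down the spread at shares this high. The small SD is therefore no sign of unusual accord between embryos.

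Some deeply read members split the embryos. At XX 1479089, with 17232 reads of C against 7156 of A (70.7%), embryos 5, 7, 9 and 10 had 89.6% to 91.4% with C and the other 8 had 60.5% to 65.8%. At I 1002862 (22812 reads of C against 5663 of T, 80.1%), embryos 2, 6, 7, 8 and 9 had 86.8% to 88.5% and the other 7 had 68.1% to 73.2%. At V 13980722 (12237 reads of A against 5302 of G, 69.8%), embryos 3, 7, 8 and 11 had 52.9% to 58.5% and the other 8 had 75.1% to 79.8%. Within such a site the embryos on either side of the gap did not overlap, and the embryos above it differed between the sites. The pooled share at these sites is an average over unlike embryos.

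Neighbours could be set beside some of these splits, with sites chosen after their values were seen. On XVIII, 9140879 had 89.7% to 93.4% with T in embryos 1, 3, 5 and 7, and 70.5% to 75.8% in the other 8. At XVIII 9139569, in the same cluster, the same 4 embryos had 85.1% to 89.6% with the alternate T and the other 8 had 78.9% to 80.8%, so the same embryos were high at both. At XVIII 9140356, between these sites, those 4 embryos had 79.1% to 85.3% and the other 8 had 84.7% to 89.0%, and 3 of those 4 were the lowest of all. On V, 13980555 lies 167 bp from 13980722, has the reference base higher too (13066 reads against 4316, 75.2%) and did not split: its embryos had 70.7% to 77.9%. The shares at these V sites went in opposite directions over the embryos, with r = -0.67.

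A gap of more than 20 points between embryos, with at least 3 embryos on each side, was found at 5 members (0.740%). It was found at 128 remaining sites (0.746%). The rule keeps the same base higher in every embryo of a member, which limits its gaps. These percentages therefore do not show that gaps were equally frequent. The largest gap at a member was at III 14048125 (1454 reads of T against 424 of G, 77.4%). There embryos 2, 3, 4, 6, 7, 8 and 9 had 88.4% to 94.2% and the other 5 had 52.1% to 58.3%. The SD there, 18.3 points, was the largest of all members. The others were I 6216001 (4 embryos against 8), III 1592788 (7 against 5), XX 1479089 (4 against 8) and VIII 15899453 (6 against 6). At each of the 5 the lower embryos were between 52.1% and 65.8%.

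**Figure D5:**
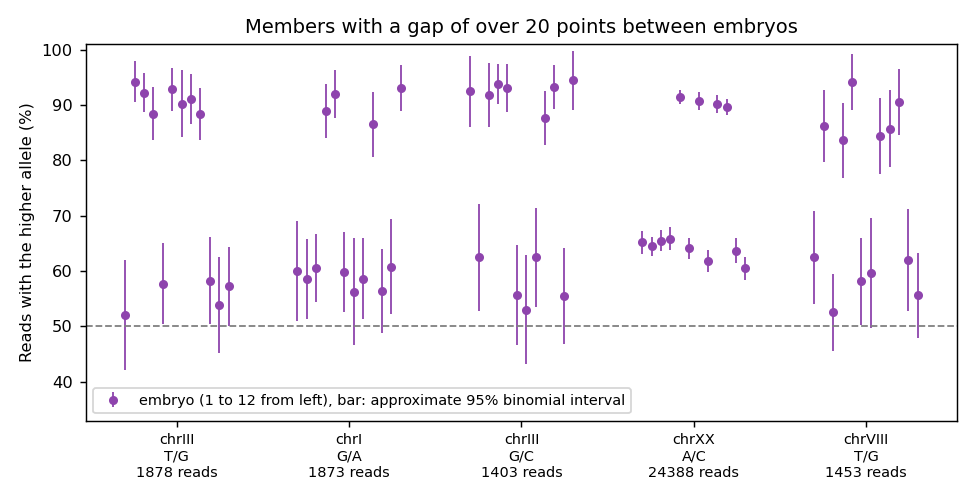
Percent of reads with the higher base (y axis) in each embryo (points, 1 to 12 from left to right, with approximate 95% binomial intervals) at the 5 members with a gap of more than 20 points. At each site the embryos form an upper and a lower set, with 7 and 5 embryos at the first site and 4 and 8 at the fourth.

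At *HOXDB*, sites were sought within 4 kb of 1 variant that the paper plotted for each of *HOXD11B*, *HOXD9B* and *HOXD4B*. The paper scored further variants, and its informative variants differed between the embryos and the spine and fin samples. Of the 7 clean heterozygous sites in these ranges, 1 was a member, a count too small to set against the 3.79% of all clean heterozygous sites. It was VI 17782714, near *HOXD4B*, a *Hox* gene of the family that specifies position along the body axis, with 564 reads of G, the alternate base, and 186 of A (75.2%, 71.9% to 78.3%). The embryos were lowest at 59.7%, had a median of 75.9% and were highest at 82.7%. Low mapping quality depth was 3.01% at this site, against a median of 0.263% at the remaining clean heterozygous sites. In whole embryos the paper found differences at some but not all informative *HOXD4B* variants, and no striking difference between the alleles. A single member is therefore no measure of the imbalance of the gene. No annotation of the build was used, so no other member is placed in a gene, exon or UTR.

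A few members lay outside the numbered chromosomes. Mitochondria are inherited from the mother, so most animals carry a single mitochondrial sequence. The only 2 clean heterozygous sites on chrM (M) were both members: M 778 had 2690 reads of A and 905 of G (74.8%), and M 2136 had 1299 reads of A and 464 of T (73.7%). Embryos were from 66.5% to 87.7% at M 778 and from 65.8% to 83.6% at M 2136. On M, passing the rule as heterozygous does not stand for a maternal and a paternal copy, and the source of the second base was not tested. A sequence named P, which the sources used here do not describe, held 3 members of 32 clean heterozygous sites, P 104144 (79.5%), the adjacent P 104145 (90.6%) and P 104767 (79.0%), all with the reference base higher.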

How the data were processed

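RNA-seq of 12 whole F1 embryos was analysed, 1 library each. Per the labels and methods, 200 ng of total RNA went into stranded mRNA libraries with 12 PCR cycles. The authors trimmed reads (cutadapt 2.4, Trim Galore), mapped them to *gasAcu1-4* with STAR, called variants and counted reads per site with GATK 4.1.4.1; the submitters' processing notes also name Picard 2.23.4, SAMtools 1.10 and FastQC 0.11.9. The deposited values are raw counts per site and embryo: reads with the reference base, with the alternate base, their total, and the depth set aside for poor mapping, for poor base quality or for another base. Mapping to a single reference can lose reads with several alternate bases.

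Shares were computed in Python 3.11.15 (numpy 2.4.6, pandas 2.3.3, scipy 1.17.1, matplotlib 3.10.9), with no normalization, on sites listed in all 12 files with more than 12 reads and a minor base above 5% in every embryo. Members were joined into clusters while at most 10 kb apart. The steps were tested on simulated data. Sites are named by position (1-based). The text names the 8 clusters with the most members, the 5 members with the most reads and the 5 with the highest share outside them (at most 1 per 100 kb), those nearest the limit, the 3 longest clusters, the 5 close pairs with the largest difference, the widest and narrowest spreads, and members near *HOXDB*; sites on M and P, clusters of a single kind of change and sites with gaps were chosen after seeing the values. The members and lists were chosen with earlier results of these data known. Alternatives changed each limit, the cluster distance, the balance point and the embryos used. Reference gene tables of another assembly were not used.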

Additional observations from a re-analysis of the deposited data

How the results depend on the processing

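The number of members followed the limits. It was 450 with the minor base above 10%, 336 with low mapping quality depth of at most 1%, 1326 with no such limit, 1196 with a share of at least 60% and 336 with at least 75%, against 676. The clusters numbered 62, 216, 215 and 51 under the last 4 of these settings, against 118. With no mapping limit, 78.9% of the members had the reference base higher and 72.4% were clustered. Centring on the median reference share left 671 members, 641 of them shared, and 70.5% with the reference base higher, against 75.1%. Joining within 1 kb put 60.4% of the members in clusters, and joining within 50 kb put 69.8%, against 65.8%. The share of neighbouring pairs with a positive r was 85.9% within 150 bp, 72.9% over 150 bp and up to 1 kb and 58.8% from 1 to 10 kb, against 80.7% in all. Leaving out each embryo gave 673 to 757 members, 114 to 131 clusters, 74.6% to 75.7% with the reference base higher, 64.2% to 66.0% clustered and 97.6% to 99.1% with the same base higher in the embryo left out. The remaining settings moved these values by less than 1.5 times or less than their interval, and in every setting tried the reference base was higher at most members. Settings added after seeing the data were leaving out M and P (671 members), taking 1 member per cluster (75.4% with the reference base higher) and leaving out the A-to-G and T-to-C clusters (624 members, 75%). The causes were not tested. No paired test of the alleles within embryos was run, because the members were chosen on these shares. Depth limits single embryos most: at the median of 62.5 reads per member, counting alone gave an SD of 5.44 points.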
